A study of Mus musculus with 6 samples.

Results

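Genes for cytosolic ribosomal proteins were examined on expression arrays of mouse CD4+CD25+ T cells, the fraction that holds the regulatory T cells (Treg). Members were genes with a probe set annotated to them alone whose symbol begins with Rpl or Rps and a digit, together with Rplp0, Rplp2 and Rpsa; S6 kinases and pseudogene names were left out. This gave 48 of the 12393 genes with a probe set of their own, 22 named for the small (40S) and 26 for the large (60S) subunit, with 100 probe sets in all. Each gene was represented by its probe set of highest mean signal. The symbol rule also takes in 6 like genes, named after another ribosomal protein gene: Rpl3l, Rpl7l1, Rpl22l1, Rpl39l, Rps4l and Rps27l.

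RNA came from magnetically separated cells of 3 wild-type and 3 MBD2–/– samples, all on the Balb/c background. Mbd2 encodes a protein that binds methylated DNA. The submitters called the samples independent, whereas age, sex, the number of animals per sample and the kind of knockout allele were not given in the sources used here. Signals are deposited log2 values after RMA, so that 1 unit is a change of 2-fold. Differences are knockout minus wild type.

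Ribosomal proteins join ribosomal RNA to form the particles that translate messenger RNA: the small subunit reads the message and the large subunit forms the peptide bond. Their messages are abundant in most cells and rise in growing lymphocytes. Most begin with a run of pyrimidines, the 5′ terminal oligopyrimidine (TOP) tract, through which the growth kinase mTORC1 controls their translation. RNA levels therefore need not follow the rate of protein synthesis.

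Start-site sequences are shown because this tract is the feature the family is known for. RefSeq promoters of build GRCm38.p6 were listed for 42 of the 48 genes, 50 windows in all, each from 250 bases before to 50 bases after an annotated start. The stretches below run 5′ to 3′ from 40 bases before the start to 20 bases into the transcript. Capitals mark the longest run, or the first of equal ones, of at least 8 C or T letters that touches the region from 20 bases before to 30 bases after the start. The comparisons turn on Rps27l, Rps27, Rpl22l1 and Rpl12, while Rplp2, Rps18 and Rps6 serve as further members.
Rps27l (chr9:66946046-66946105, + strand): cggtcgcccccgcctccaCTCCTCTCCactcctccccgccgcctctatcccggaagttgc
Rps27 (chr3:90213629-90213688, - strand): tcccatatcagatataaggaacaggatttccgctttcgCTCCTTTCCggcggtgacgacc
Rpl22l1 (chr3:28805468-28805527, + strand): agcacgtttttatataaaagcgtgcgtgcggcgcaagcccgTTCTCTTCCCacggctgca
Rpl12 (chr2:32961672-32961731, + strand): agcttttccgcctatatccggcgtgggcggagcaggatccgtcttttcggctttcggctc
Rplp2 (chr7:141447611-141447670, + strand): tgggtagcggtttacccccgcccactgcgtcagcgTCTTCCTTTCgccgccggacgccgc
Rps18 (chr17:33955646-33955705, - strand): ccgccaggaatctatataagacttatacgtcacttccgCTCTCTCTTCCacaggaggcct
Rps6 (chr4:86857348-86857407, - strand): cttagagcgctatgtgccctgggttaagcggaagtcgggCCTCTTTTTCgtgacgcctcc
In Rps27, Rpl22l1, Rplp2, Rps18 and Rps6 the run began within 5 bases of the start. In Rps27l, for which 1 of 2 listed starts is shown, the marked run lay upstream, followed by an unmarked run of equal length that also ended before the start. The window of the other Rps27l start had no such run, and Rpl12 had no run of at least 8 letters in that region.

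Such a run was present in 58% of the 50 member windows and in 23.5% of all 32851 RefSeq promoters. The letters CCGGAAG, the core of sites for Ets factors such as GABP, were found on either strand in 42% of member windows and 8.86% of all promoters. On the opposite strand these letters include pyrimidines, so a match can overlap a marked run. GGGCGG, the core of Sp1 sites, was found on either strand in 52% against 35.7%. TATAAA, a form of the TATA box, was in 12% against 13.6%. It was searched as an exact match at any position on either strand, so variant TATA boxes were not counted. AAGATGGC, which holds the core of YY1 sites, was in 8% against 2.75%. The palindrome bound by the factor BANP, searched as an exact match and not spelled out here, was in 12% of member windows, those of Rpl12 and Rps6 among them, against 0.466%. The dinucleotide CG, which Mbd2 binds when methylated, occurred at a median of 21.5 times in a member window and 7 times in all promoters. Both windows of Rpl3l, the muscle form of Rpl3, held 2 and 3. A match is a description of letters; methylation and binding were not measured.

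1 array, wild-type replicate 3, differed from all others. Its highest correlation with another array was 0.767, and its SD across probe sets was 1.36 against 1.78 to 1.83. Counts and medians over the members are therefore given with all 6 arrays and with the 5 that remain without it; values of single genes are from the 5 unless 6 are named. The brighter Mbd2 probe set was at 8.80, 8.66 and 6.93 in wild type and at 5.93, 5.71 and 6.14 in knockout. Whether it lies within the removed sequence was not given in the sources used here. With 6 arrays neither this nor the dimmer Mbd2 probe set was called (adjusted p = 0.548 and 0.0619 in limma). Without wild-type replicate 3 both were called (adjusted p = 0.0019 and 0.0017). The fit of 6 arrays thus missed the targeted gene itself. Foxp3, the defining Treg factor, was at 8.83, 8.74 and 6.93 in wild type and at 7.98, 6.62 and 8.17 in knockout, lowest in knockout replicate 2. Of 14 tested Treg genes, 13 were lower in knockout without wild-type replicate 3, 4 of them called, while with 6 arrays 11 were lower and 0 called (1 at an unadjusted p under 0.05, in limma). General T cell genes were lower too: 12 of 12 without wild-type replicate 3 (median -0.52), with 0 called and 5 at an unadjusted p under 0.05 in limma. With 6 arrays 8 of these were lower and 4 higher, with 0 called. Granulocyte, myeloid, B cell and plasma cell markers had higher summed signals in knockout. The log2 sum of 14 granulocyte markers was 9.56 to 10.72 in wild type and 14.61 to 15.14 in knockout, with 10 of 14 called without wild-type replicate 3 and 5 with 6 arrays. That of the myeloid markers was 10.94 to 11.66 and 13.29 to 14.37, with 5 of 16 called and 2 with 6 arrays. That of the B cell markers was 10.26 to 11.43 and 12.40 to 13.48, with 1 of 12 called and 0 with 6 arrays, where 10 had an unadjusted p under 0.05. That of the plasma cell markers was 10.93 to 13.06 and 13.54 to 14.65, with 0 of 9 called in both fits and 4 and 3 at an unadjusted p under 0.05. Erythroid and platelet markers had a log2 sum of 7.92 to 9.58 in wild type, highest in replicate 3, and 8.11 to 8.26 in knockout, with 0 of 4 tested called in both fits, and 2 and 0 at an unadjusted p under 0.05. In bulk RNA fewer cells of a type and less RNA per cell cannot be told apart, and the part of these cells in the values below was not tested.

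Ribosomal protein signals filled the top of every array. The median member was at 12.73, 12.68 and 12.42 in wild-type replicates 1, 2, 3, and at 12.73, 12.49 and 12.72 in the knockout ones. The brightest probe set of any kind lay between 13.89 and 14.38. Ranked within its own array, the median member stood at percentile 99.4 in knockout replicate 2 and at 99.5 in each of the other arrays, wild-type replicate 3 included. Of the 48 members, 33 had a mean over 12, a level chosen after the values were seen, 2 lay between 11 and 12, and 13 were under 10.

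Signal depends on how well probes bind as well as on transcript amount, so the order of genes is not an order of abundance. The highest means belonged to Rps29, Rplp2, Rps28, Rps4x and Rps3a1. Rps29, a small zinc-binding protein of the 40S head, was at 13.88, 13.78 and 13.77 in wild type and at 13.78, 13.75 and 13.77 in knockout. Rplp2, a protein of the stalk that recruits elongation factors, was at 13.75, 13.68 and 13.60 in wild type and at 13.69, 13.48 and 13.66 in knockout. In both genes the arrays lay within 0.5 units of one another. For 8 of the 13 members under 10, another probe set that lists their symbol among several had a mean over 12, so their low signal does not show a rare transcript. Rpl3l and Rps4l fell below the filter cutoff of 5.18 and were not tested. Rpl3l was at 4.41, 4.33 and 5.35 in wild type and at 4.48, 4.44 and 4.58 in knockout, and Rps4l at 4.60, 4.52 and 6.71 in wild type and at 4.71, 4.63 and 4.64 in knockout. They were the 2 members whose highest array was wild-type replicate 3.

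**Figure D1:**
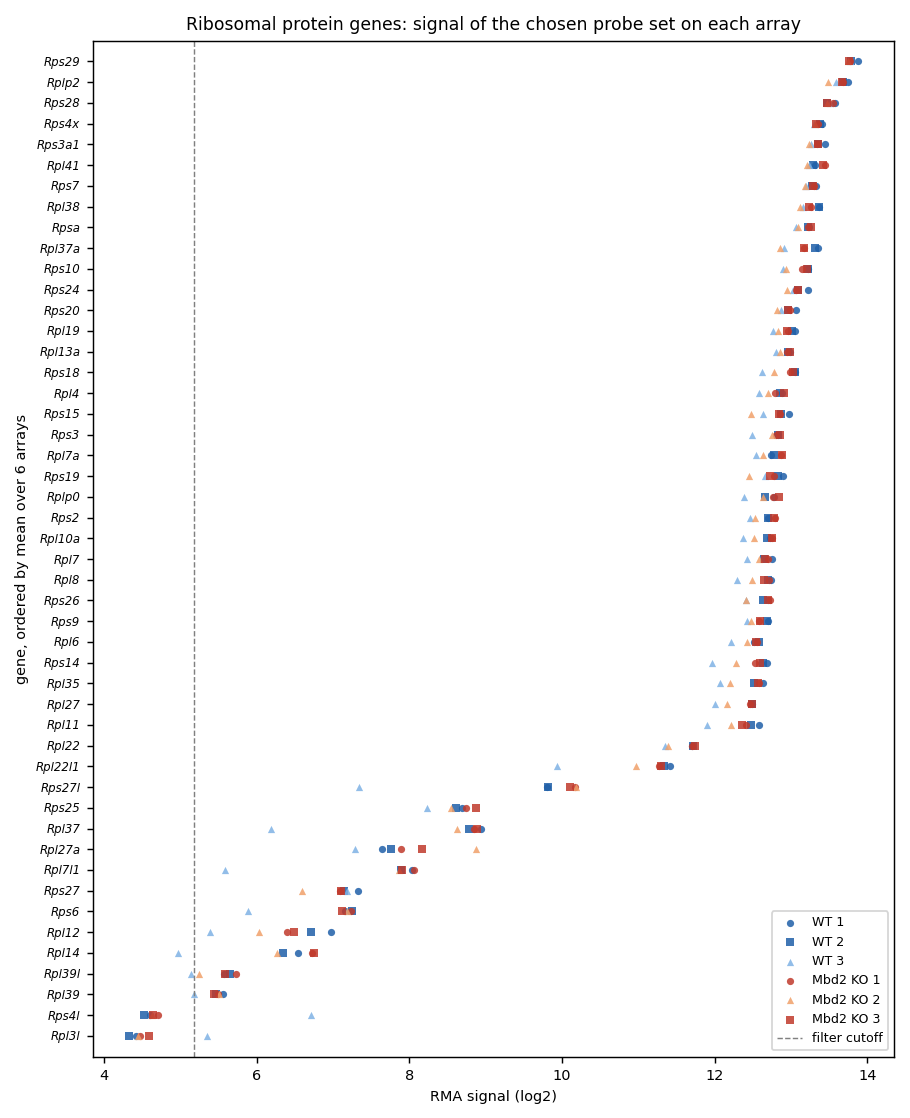
Signal (log2, horizontal axis) of the 48 ribosomal protein genes (vertical axis, ordered by mean) on each of 3 wild-type and 3 Mbd2 knockout arrays, with the filter cutoff of 5.18 dashed. Of the 48 genes, 33 have a mean above 12 with the arrays close together, and wild-type replicate 3 falls furthest below the others for genes in the middle of the range.

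The comparison of groups asked whether these messages differed between Mbd2 knockout and wild-type cells. No member passed the threshold of an adjusted p under 0.05 in limma, in either set of arrays. With 6 arrays, 0 of 46 tested members were called, where 0.103% of all 13575 tested probe sets were. At an unadjusted p under 0.05 there were also 0 of 46, against 4.08% of all. Without wild-type replicate 3, 0 of 46 were called, against 1.4% of all. There 2 of 46, Rps27l and Rpl12, had an unadjusted p under 0.05, against 21.6% of all.

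Without wild-type replicate 3 most differences were small. The members then had a median of -0.07, with quartiles at -0.12 and -0.03. All tested probe sets had a median of -0.06, with quartiles at -0.22 and 0.10. Of the 46, 38 were lower and 8 higher, or 82.6% lower against 60.7% of all. The median was -0.07 for both the 21 tested genes of the small subunit and the 25 tested genes of the large subunit. With 6 arrays it was -0.02 for the small subunit (9 higher, 12 lower) and 0.05 for the large (20 higher, 5 lower). Among the 33 members over 12, values without wild-type replicate 3 ran from -0.27 (Rpl37a) to 0.06 (Rpl41), and 29 were lower (87.9%). Of 70 other probe sets over 12 with no ribosomal symbol, 70% were lower. With 6 arrays 18 of the 33 members were higher and 15 lower. Without wild-type replicate 3 the 95% interval lay within 0.5 units of 0 for 37 of the 46 members. It lay within 1 unit for 45, the exception being Rpl27a. It lay within 0.25 units for 2, so smaller differences could not be resolved for the rest. With 6 arrays the intervals were wider. They lay within 0.5 units of 0 for 5 of the 46, within 1 unit for 38 and within 0.25 units for 0.

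The direction of the median depended on which arrays were used. With all 6, it was 0.03, with 29 higher and 17 lower, against 0.15 for all tested probe sets. Leaving out only knockout replicate 1 or only knockout replicate 3 gave -0.01 and -0.02. Leaving out only wild-type replicate 1, wild-type replicate 2 or knockout replicate 2 gave 0.11, 0.08 and 0.09. With wild-type replicate 3 and knockout replicate 2 both left out, the median was -0.02, with 28 lower and 18 higher (60.9% lower against 57.1% of all). Scaling also moved the split: with 6 arrays, 31 of 46 were lower after quantile normalization was repeated and 8 after each array was centred on its median. With 5 arrays these counts were 33 and 39.

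**Figure D2:**
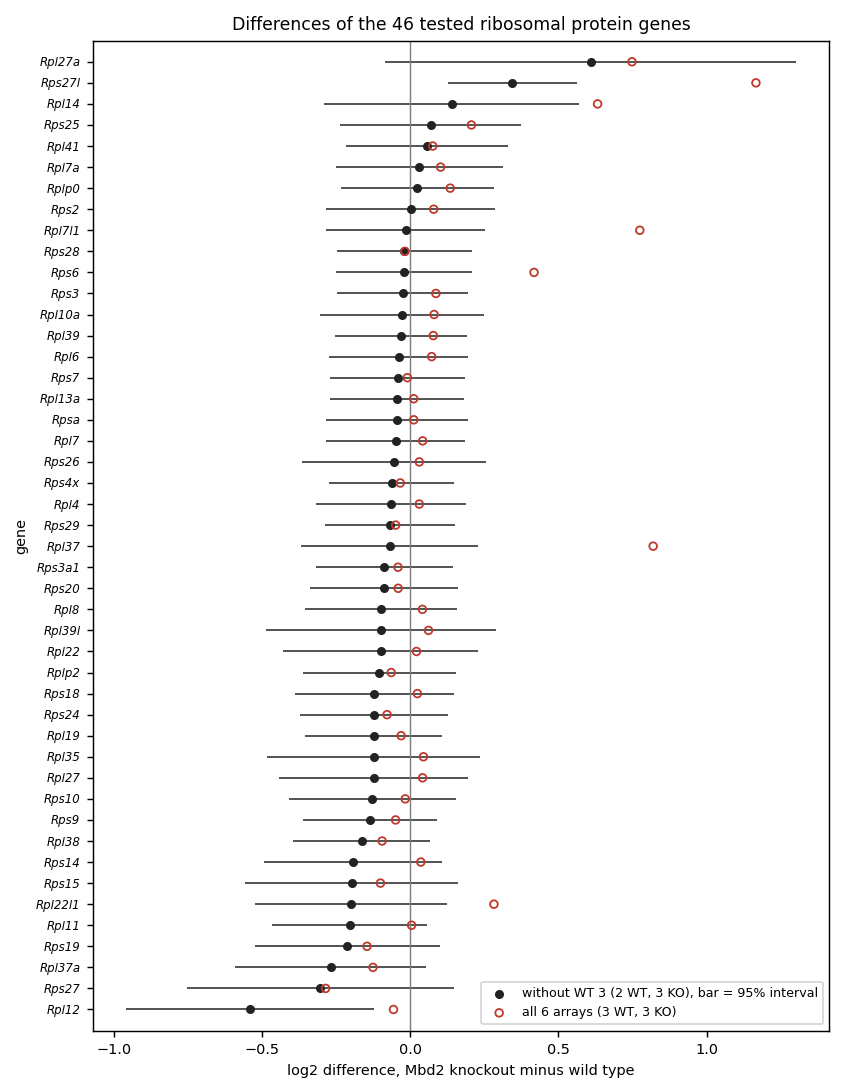
Log2 difference, knockout minus wild type (horizontal axis), of the 46 tested ribosomal protein genes (vertical axis): filled points without wild-type replicate 3 with 95% intervals from limma, open points with all 6 arrays. The intervals of all genes except Rps27l and Rpl12 include 0. Every open point lies at or to the right of its filled one, furthest for Rpl37, Rps27l and Rpl7l1.

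For a minority of members the groups did not overlap. Without wild-type replicate 3, 17 of 46 were lower in every knockout array than in both wild-type arrays, against 31.8% of all probe sets, and 2 of 46 were higher, against 15.6%. With 6 arrays 1 member, Rps27, was lower without overlap, against 5.72% of all, and 2, Rps27l and Rpl27a, were higher, against 10.4%. The member counts of 1 and 2 were below the background, and 17 of 46 was near it.

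Rps27l, a near copy of the 40S protein Rps27 and a known target of p53, was the 1 member with a positive difference whose interval left out 0. On its brightest probe set it was at 9.81, 9.82 and 7.34 in wild-type replicates 1 to 3 and at 10.17, 10.19 and 10.10 in knockout. Every knockout array was above every wild-type array, and wild-type replicate 3 lay far below the rest. Without that array the difference was 0.34 (SE 0.09, 95% interval 0.13 to 0.56, 1.27-fold), with an unadjusted p of 0.00843 and adjusted p = 0.115 over all probe sets in limma, which missed the threshold. With 6 arrays it was 1.17 (adjusted p = 0.829).

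Both other Rps27l probe sets had the same order of groups. The next brightest was at 9.18, 9.29 and 7.07 in wild type and at 9.68, 9.74 and 9.76 in knockout, a difference of 0.49 (adjusted p = 0.0639 in limma without wild-type replicate 3). The dimmest was at 8.93, 8.93 and 6.81 and at 9.24, 9.43 and 9.35, a difference of 0.41 (adjusted p = 0.103). All 3 probe sets read the same RNA and are not independent, and 2 of them carry the suffix x, for probes that can bind related transcripts. Without knockout replicate 2 as well, which leaves 2 arrays a group, Rps27l rose by 0.33 (SE 0.07, adjusted p = 0.0284 in limma) and Rpl12 fell by 0.40 (SE 0.11, adjusted p = 0.0451). They were the 2 of 46 members called there on their chosen probe sets, against 18.7% of all probe sets. Both other probe sets of Rps27l and 2 that were not chosen for Rpl13a were also called there.

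Rps27, the base gene, had values in the other direction that missed the threshold, on a dim probe set with a mean of 7.08 over 6 arrays. It was at 7.33, 7.14 and 7.18 in wild type and at 7.10, 6.60 and 7.11 in knockout, lowest in knockout replicate 2. The difference was -0.30 (95% interval -0.75 to 0.15, adjusted p = 0.381 in limma) without wild-type replicate 3 and -0.28 with 6 arrays. The groups did not overlap, although the lowest wild-type array and the highest knockout array were nearly level.

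Rpl22 is needed for the development of alpha-beta T cells, and Rpl22l1 is its paralog. Rpl22 was at 11.70, 11.72 and 11.35 in wild type and at 11.71, 11.39 and 11.74 in knockout, a difference of -0.10 (95% interval -0.43 to 0.23) without wild-type replicate 3. Rpl22l1 was at 11.41, 11.34 and 9.93 in wild type and at 11.28, 10.96 and 11.29 in knockout, a difference of -0.20 (95% interval -0.52 to 0.12). With 6 arrays these differences were 0.02 and 0.28. Wild-type replicates 1 and 2 lay above all knockout arrays for Rpl22l1, and for Rpl22 this depended on the probe set. They overlapped the knockout arrays on the brighter one, whereas the dimmer was at 7.28, 7.35 and 5.65 in wild type and at 6.98, 6.83 and 7.13 in knockout, apart without wild-type replicate 3. Its difference was -0.34 (95% interval -0.63 to -0.05, adjusted p = 0.185 in limma), which missed the threshold. Rpl7l1 was at 8.03, 7.89 and 5.59 in wild type and at 8.06, 7.86 and 7.90 in knockout, a difference of -0.01, with its base gene Rpl7 at -0.05. Rpl39l, a form enriched in male germ cells, had a difference of -0.10 and Rpl39 one of -0.03, both with signals near the filter cutoff.

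**Figure D3:**
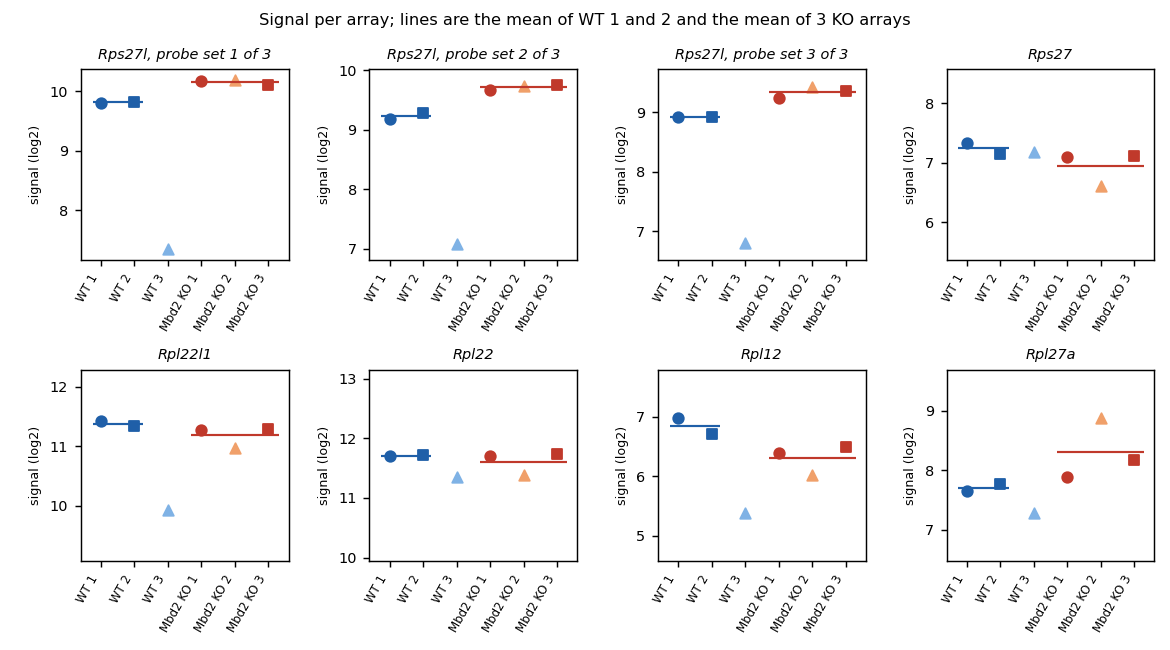
Signal (log2, vertical axis) on the 6 arrays (horizontal axis) for the 3 probe sets of Rps27l and the chosen probe sets of Rps27, Rpl22l1, Rpl22, Rpl12 and Rpl27a; lines are the mean of wild-type replicates 1 and 2 and the mean of 3 knockout arrays. All 3 Rps27l panels show knockout above wild type, with wild-type replicate 3 far below.

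Rpl12, at the base of the ribosomal stalk, had the most negative difference without wild-type replicate 3. Its chosen probe set was dim, with a mean of 6.33 over 6 arrays. Any probe sets that Rpl12 shares with other symbols were summarised only as a group. Rpl12 was at 6.97, 6.71 and 5.39 in wild type and at 6.39, 6.03 and 6.49 in knockout. Without wild-type replicate 3 the groups did not overlap, and the difference was -0.54 (SE 0.17, 95% interval -0.96 to -0.12, adjusted p = 0.157 in limma), which missed the threshold. With 6 arrays it was -0.06. By p rather than by size, the lower members next in rank, none of them called, were Rpl37a at -0.27, Rpl11 at -0.20, Rpl38 at -0.16 and Rps19 at -0.21. Their adjusted p in limma ran from 0.293 to 0.379.

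Rpl11 and Rps19 are both mutated in Diamond-Blackfan anaemia, and Rpl11 binds the p53 regulator Mdm2 when ribosome assembly fails. Rpl11 was at 12.59, 12.47 and 11.90 in wild type and at 12.41, 12.21 and 12.36 in knockout, and Rps19 at 12.89, 12.83 and 12.66 in wild type and at 12.77, 12.45 and 12.73 in knockout. In both the lowest knockout array was replicate 2, and the groups were apart only with wild-type replicate 3 left out. Rpl38, which aids the translation of particular messages in the embryo, was at 13.36, 13.37 and 13.16 in wild type and at 13.26, 13.12 and 13.23 in knockout. Rpl37a, a zinc-binding protein of the large subunit, was at 13.35, 13.31 and 12.90 in wild type and at 13.18, 12.85 and 13.17 in knockout, with the same pattern.

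Rpl27a, of the large subunit, had the most positive difference and the widest interval without wild-type replicate 3. Its chosen probe set was also dim, with a mean of 7.94 over 6 arrays. Rpl27a was at 7.64, 7.76 and 7.28 in wild type and at 7.89, 8.87 and 8.17 in knockout, so that knockout replicate 2 lay well above the rest. The difference was 0.61 (95% interval -0.08 to 1.30, adjusted p = 0.275 in limma) without wild-type replicate 3 and 0.33 (adjusted p = 0.087) without knockout replicate 2 as well. With 6 arrays it was 0.75. By size the next was Rps27l, described above, and by p the higher members ranked after these 2 were Rpl14 at 0.14, Rps25 at 0.07 and Rpl41, a very short peptide, at 0.06. None was called.

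Members with a known place in signalling or in the stalk also missed the threshold. Rps6, the substrate of the S6 kinases downstream of mTORC1, was at 7.16, 7.25 and 5.89 in wild type and at 7.24, 7.18 and 7.12 in knockout, a difference of -0.02 (95% interval -0.25 to 0.21) without wild-type replicate 3 and 0.42 with it. Rpsa, also described as a laminin receptor, was at 13.24, 13.23 and 13.07 in wild type and at 13.23, 13.09 and 13.26 in knockout, a difference of -0.04 (95% interval -0.28 to 0.20). Rplp0, the scaffold of the stalk, had a difference of 0.02 (95% interval -0.23 to 0.28) and Rplp2 one of -0.10 (95% interval -0.36 to 0.16). The groups overlapped without wild-type replicate 3 in all 4, Rps6, Rpsa, Rplp0 and Rplp2.

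Single arrays stood low for many members together. Knockout replicate 2 was the lowest of the 3 knockout arrays for 44 of the 48 members (91.7%), against 55.4% of all tested probe sets and 65.7% of the 70 other probe sets over 12. The exceptions were Rpl27a, Rpl39, Rps27l and Rps6. Its deviation from the mean of knockout replicates 1 and 3 had a median of -0.17, with Rps27 at -0.50, Rpl14 at -0.47 and Rpl27a at 0.84. On that array the T cell genes had a log2 sum of 13.13, against 13.75 and 13.74 on the other knockout arrays. The Treg genes were also lowest there, at 11.88 against 12.51 and 12.71. The plasma cell markers had a log2 sum of 14.65, against 13.54 and 13.55. The other marker sums were highest there as well. They were 15.14 against 14.66 and 14.61 for granulocytes, and 14.37 against 13.51 and 13.29 for myeloid markers. For B cell markers they were 13.48 against 12.43 and 12.40, and for erythroid and platelet markers 8.26 against 8.11 and 8.13. The part of these cells in the ribosomal protein values was not tested.

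Wild-type replicate 3 was the lowest wild-type array for 44 of the 48 members, against 70.7% of all tested probe sets, and the lowest of all 6 for 33. The exceptions among wild-type arrays were Rpl3l, Rps4l, Rps27 and Rps28. Its deviation from the mean of replicates 1 and 2 had a median of -0.26 among the 33 members over 12. It was larger for several members of middle signal, at -2.67 for Rpl37, -2.47 for Rps27l, -2.37 for Rpl7l1 and -1.32 for Rps6. Rpl37 had a difference of 0.82 with all 6 arrays and of -0.07 without this one, and Rpl7l1 of 0.77 and -0.01.

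**Figure D4:**
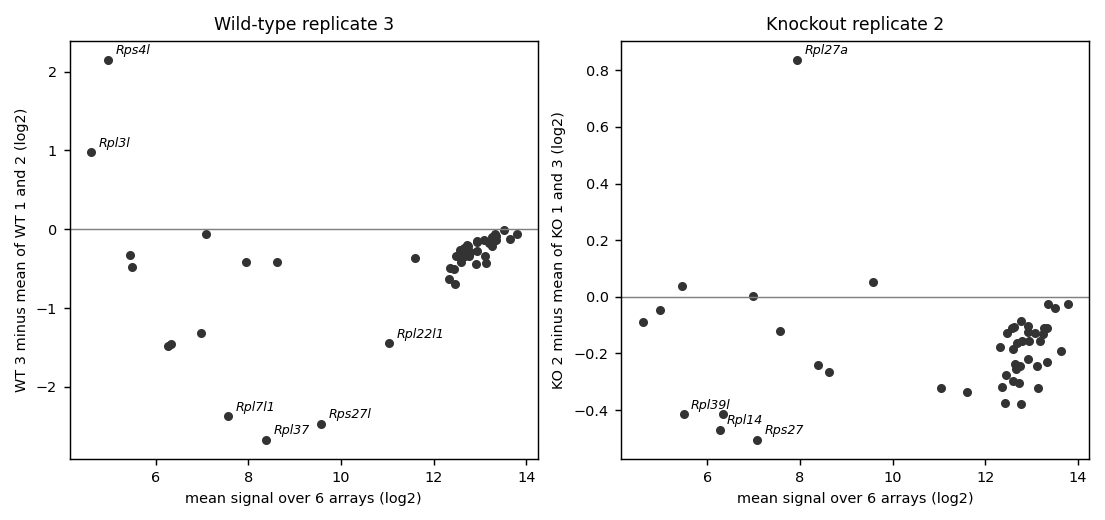
Deviation (log2, vertical axes) of wild-type replicate 3 from the mean of replicates 1 and 2 (left) and of knockout replicate 2 from the mean of replicates 1 and 3 (right) against mean signal over 6 arrays (horizontal axes), 1 point for each of 48 members. Most points lie below 0, the largest deviations of wild-type replicate 3 are in the middle of the range, and Rpl27a stands alone at the top on the right.

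Of the 100 probe sets, 87 were tested, and 19 genes had more than 1 tested; in 7 of the 19 their differences had opposite signs without wild-type replicate 3, none by over 0.5 units. The widest span was in Rpl13a, which also silences inflammatory messages outside the ribosome, from -0.13 to 0.35 over 4 probe sets. With knockout replicate 2 left out as well, the Rpl13a probe set with the highest of these differences rose by 0.48 (adjusted p = 0.0102 in limma) and another by 0.33 (adjusted p = 0.0272). The first was at 9.70, 9.69 and 7.33 in wild type and at 10.12, 9.78 and 10.22 in knockout. The brightest, chosen for Rpl13a, had a difference of -0.04 without wild-type replicate 3 and was not called in any of these fits. A further 96 tested probe sets listed a ribosomal protein symbol among several. Of these 0 were called in either fit, and they had medians of 0.02 in the fit of 6 arrays and -0.07 in that of 5, with 74 lower and 22 higher in the latter.

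Other genes of translation are given as lists. Without wild-type replicate 3, 0 of 45 ribosome biogenesis factors were called in limma, with a median of -0.01, 21 higher and 24 lower. With 6 arrays that median was 0.40, with 40 higher, 5 lower and 0 called (0 at an unadjusted p under 0.05). Initiation factors had 0 of 24 called and a median of 0.01, elongation and release factors 0 of 8 and -0.04, and other ribosome-associated or TOP genes 0 of 14 and -0.04. At an unadjusted p under 0.05 these lists had 1, 1, 0 and 2 genes. With 6 arrays the last of these lists had 12 of 14 genes higher (median 0.32), initiation factors 22 of 24 (median 0.40) and elongation factors 7 of 8 (median 0.37), with 0 called and 1, 0 and 0 at an unadjusted p under 0.05. The medians of these lists thus moved with wild-type replicate 3. Wdr12, an assembly factor of the large subunit, had a difference of 0.39 (adjusted p = 0.187 in limma) and the helicase Eif4a2 of -0.29 (adjusted p = 0.147). Eef2, which moves the ribosome along the message, was at -0.15, and Eif4ebp1, a repressor of initiation under mTORC1 control, at 0.59 (adjusted p = 0.168).

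Among 17 genes of mTORC1 and Myc growth control, 1 was called without wild-type replicate 3, against 1.4% of all tested probe sets, and 0 with 6 arrays. Without that array the list had a median of -0.04, with 7 higher and 10 lower. At an unadjusted p under 0.05 in limma there were then 1 higher and 3 lower. With 6 arrays the median was 0.21, with 11 higher and 6 lower, and 1 higher and 0 lower at that level. Mxd4, which competes with Myc for their partner Max, was at 8.51, 8.42 and 7.23 in wild type and at 7.74, 7.76 and 7.67 in knockout. Without wild-type replicate 3 it fell by 0.74 (SE 0.09, adjusted p = 0.0315 in limma), and with 6 arrays the difference was -0.33 (adjusted p = 0.829). Mnt, another Myc antagonist, had a difference of -0.32 (adjusted p = 0.124), and Ddit4, an inhibitor of mTORC1, of 0.61 (adjusted p = 0.137).

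Mitochondrial ribosomal proteins, which translate the genes of the mitochondrial genome, had a median of 0.04 over 74 genes without wild-type replicate 3, with 44 higher, 30 lower and 0 called in limma, 4 having an unadjusted p under 0.05. Mrps12 was at 0.38 (adjusted p = 0.0944), Mrpl20 at 0.44 and Mrpl9 at -0.44. The 17 proteasome core subunits had a median of 0.04, with 0 called and 2 at an unadjusted p under 0.05. With 6 arrays these 2 lists had medians of 0.38 and 0.49, against 0.03 for the cytosolic ribosomal proteins. The latter differed with signal level: the median was 0.01 for the 33 members over 12 and 0.28 for the 13 tested members at 12 or under. The lists were not matched for signal. Differences between lists were not tested.

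**Figure D5:**
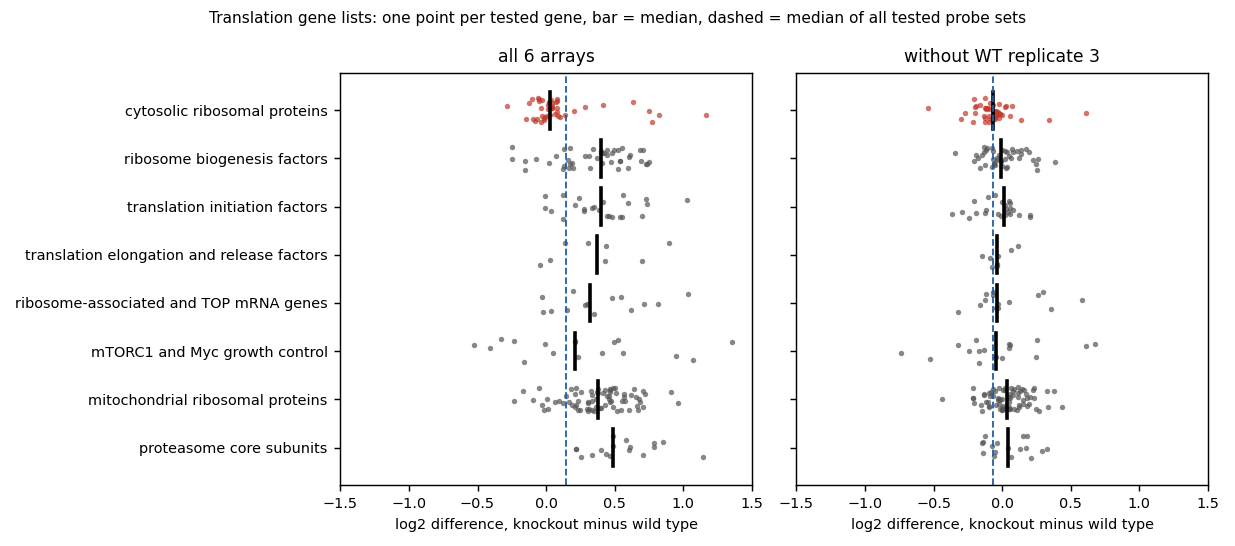
Log2 difference, knockout minus wild type (horizontal axis), for the tested genes of 8 translation and protein turnover lists (vertical axis), with all 6 arrays on the left and without wild-type replicate 3 on the right; 1 point is 1 gene, the bar is the list's median and the dashed line the median of all tested probe sets. On the left the cytosolic ribosomal proteins centre at 0.03 and biogenesis factors at 0.40; on the right the lists centre between -0.07 and 0.04.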

How the data were processed

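Expression was read on 6 arrays, and the authors deposited 1 log2 value for each of 22690 probe sets. The submitters' processing notes name RMA; its software, and whether all arrays were summarised in 1 run, was not given in the sources used here. The number of arrays limits the precision.

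After 64 controls were left out, 20380 probe sets had 1 gene symbol, 691 several and 1555 none in the platform annotation. The 40% of lowest mean (under 5.18) were left out, and 13575 were tested by limma 3.58.1 under R 4.3.3, with group as the only term and Benjamini-Hochberg adjustment over all of them at a threshold of 0.05. The script was tested on simulated data. Symbols updated through RefSeq gave the same 48 members.

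Members named are the 5 per direction of smallest p in each fit, the 5 of highest and lowest mean, like genes with their base genes, and Rplp0, Rplp2, Rpsa and Rps6; list genes are chosen from the 3 of smallest p or called. Rps15, of this rank with 6 arrays only, had a difference of -0.10 there and was not called. Rpl13a was named after its values were seen. The members, lists and rules were chosen with earlier results of these data known. Alternatives covered the filter, variance model, array weights, normalization, probe set choice, threshold and arrays left out.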

Additional observations from a re-analysis of the deposited data

How the results depend on the processing

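The count of called members was 0 in both fits and under most alternatives. Array weights, for which an estimation stopped before it converged, called 1 of 46 members with 6 arrays (Rpl14), against 17.1% of all probe sets. They called 2 of 46 without wild-type replicate 3 (Rps27l and Rpl12), against 27.9% of all. Leaving out knockout replicate 2 together with that array called 2 of 46, Rps27l and Rpl12, against 18.7% of all. With single arrays left out in turn, the count was 0 from 6 arrays and ran from 0 to 2 from 5; with 1 wild-type array left, it is assumed to vary like the others. The alternative without like genes, added after the data were seen, called 0. The replicate numbers did not pair the samples (correlations of 0.15, -0.09 and -0.14 for equal numbers), and with the replicate block 0 members were called, with medians of 0.03 from 6 arrays and -0.11 from 5. Over all probe sets, calls were 14 with 6 arrays, 8 without the filter, 2323 with array weights and 524 at an unadjusted p under 0.05 with 1.5-fold. They ran from 0 to 190 with single arrays left out, and were 2537 with wild-type replicate 3 and knockout replicate 2 both left out. With 5 arrays they were 190, 561 with the block, 3783 with array weights, 779 at an adjusted p under 0.1 and 889 at an unadjusted p under 0.05 with 1.5-fold, and ran from 18 to 2537 with arrays left out. The members' median ran from -0.07 to 0.11 over arrays left out from 6 and from -0.11 to -0.02 from 5, and was -0.05 with 6 arrays after repeated quantile normalization, which left 31 of 46 lower in place of 17. Of the single-gene values, 81 changed sign while uncalled before and after, and 7 passed the threshold only under an alternative.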
